A study of Mus musculus with 28 samples.

Results

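Complex I of the respiratory chain was examined through the nuclear genes of its subunits in single Müller glial cells (MGCs) of mouse retinas that lose their rod photoreceptors. Genes with a symbol made of Ndufa, Ndufb, Ndufc, Ndufs or Ndufv and a number, and with a probe set that names no other gene, were taken as members. This gave 35 of the 18194 genes measured, 13 of class a, 11 of class b, 2 of class c, 6 of class s and 3 of class v. The choice used symbols and no measured value. By textbook knowledge 14 members belong to the matrix arm of the complex and 19 to its membrane arm, and 2, Ndufa4 and Ndufa4l2, are not complex I subunits: Ndufa4 is a subunit of cytochrome oxidase and Ndufa4l2 is its paralog. A mean signal of at least 2000 over the cells was reached by 30 members. Ndufa1, Ndufa4l2, Ndufb1, Ndufb4 and Ndufs1 stayed under it and remained in every count.

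Gene expression was read on 28 arrays, and the cDNA on an array came from a single cell that had been picked by its shape as an MGC and amplified by PCR. Rhod-ko mice, which lack the rod-specific rhodopsin gene on C57/BL6, gave 5 cells at an age of 8 weeks and as many at an age of 25 weeks. Mice with the rd1 mutation in the beta subunit of cGMP phosphodiesterase (Pde6b), on FVB, gave 5 arrays at 5 weeks and 5 cells at postnatal day 13 (P13). C57/BL6 wild-type mice older than 25 weeks by the labels gave 5 adult WT cells, for which the methods state a lower minimum age, and congenic FVB mice without the rd1 mutation (FVB.129P2-Pde6b+Tyrc-ch/AntJ) gave 3 cells at P13. For rd1 at 5 weeks, the arrays named A5 and A6 had a Pearson r of 0.989 over log2 signals, against at most 0.764 in the 377 other pairs, and their mean was counted as 1 cell, which left 4 cells in that group and 27 in all. On that pair 21 members were at 2000 or more on both arrays, with a median fold of 1.11 and a largest fold of 1.26 between them. Diseased retinas came from several litters, but no animal is named for any cell. Each condition was therefore treated as 1 sample of several cells, and differences were described with no test. The comparison of rd1 at 5 weeks with adult WT also differs in strain and age, which cannot be told apart from the mutation. By the labels the Rhod-ko cells of 8 weeks were also younger than adult WT, so that age and the loss of rhodopsin cannot be told apart there either. The adult WT cells had been profiled for an earlier study of the same laboratory, so that study and condition cannot be told apart in any comparison with them.

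The values were MAS 5.0 signals on a linear scale, scaled to the same trimmed mean on every array. For each cell the highest of a gene's probe sets was used, and a gene was called on where this signal was at least 2000. For comparisons, signals under 1000 were raised to 1000 (the floor), the log2 was taken, and group medians were subtracted. The rule of size for calling a member higher or lower was 1 on the log2 scale, which is 2-fold. Where 1 of the medians lay at the floor, the difference is a bound and is given as "at least". The background is the share of the 3377 genes with a mean signal of at least 2000 that passed the same rule. Some of the 35 members lie under this minimum, so the shares called are also given for the 30 members over it. Signals of different genes come from different probe sets and were not compared with each other. Values by cell follow 1 order: cells 2, 1, 3, 7 and 8 of Rhod-ko at 8 weeks, A1 to A5 of Rhod-ko at 25 weeks, A1, B1, A8 and the A5 and A6 mean of rd1 at 5 weeks, MG1, MG16, MG22, MG15 and MG3 of adult WT, B4, A4, A1, B3 and B1 of rd1 at P13, and A3, A4 and A5 of congenic FVB.

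Complex I oxidizes NADH and passes the electrons to ubiquinone, and it pumps protons across the inner mitochondrial membrane. The NADH site, the chain of iron-sulfur clusters and the ubiquinone site lie in the matrix arm, whose core subunits Ndufv1, Ndufv2, Ndufs1, Ndufs3, Ndufs7 and Ndufs8 have bacterial relatives. The pumps lie in the membrane arm and are encoded by mitochondrial DNA, while the nuclear subunits around them are accessory and serve assembly and stability. MGCs are known to draw much of their energy from glycolysis and to pass lactate to photoreceptors.

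Promoters of subunits of the respiratory chain are known for sites of the factors NRF-1, GABP (an ETS factor) and YY1. RefSeq windows (GRCm38.p6) of 250 bases before the gene start were found for 31 members, and were searched on both strands for GCATGCGC (NRF-1 core), CCGGAAG (ETS) and AAGATGG (YY1). The NRF-1 core was in 2 of 31 windows (6.45%), Ndufa6 and Ndufa8, against 2.56% of the windows of 27025 genes. The ETS letters were in 3 (9.68%), Ndufb6, Ndufb7 and Ndufs3, against 7.83%, and the YY1 letters in 0, against 5.18%. The windows of Ndufa6 and Ndufa8 are shown because these genes share the NRF-1 core while in Rhod-ko cells at 8 weeks Ndufa6 was on in all cells and Ndufa8 in none, and that of Ndufs3 because this core subunit was off in 4 of 5 adult WT cells. Capitals mark the motif, and each window is read in the direction of the gene.
Ndufa6, chr15:82354292-82354541, minus strand: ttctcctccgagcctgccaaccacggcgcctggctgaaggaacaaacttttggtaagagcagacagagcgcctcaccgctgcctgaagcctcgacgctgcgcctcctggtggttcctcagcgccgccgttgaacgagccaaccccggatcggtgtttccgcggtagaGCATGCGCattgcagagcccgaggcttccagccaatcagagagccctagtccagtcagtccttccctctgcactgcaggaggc
Ndufa8, chr2:36049339-36049588, minus strand: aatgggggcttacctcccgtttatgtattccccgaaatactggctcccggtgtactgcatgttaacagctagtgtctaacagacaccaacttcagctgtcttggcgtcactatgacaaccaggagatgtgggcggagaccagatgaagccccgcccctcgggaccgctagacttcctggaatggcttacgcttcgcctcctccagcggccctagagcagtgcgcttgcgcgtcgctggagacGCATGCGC
Ndufs3, chr2:90904722-90904971, minus strand: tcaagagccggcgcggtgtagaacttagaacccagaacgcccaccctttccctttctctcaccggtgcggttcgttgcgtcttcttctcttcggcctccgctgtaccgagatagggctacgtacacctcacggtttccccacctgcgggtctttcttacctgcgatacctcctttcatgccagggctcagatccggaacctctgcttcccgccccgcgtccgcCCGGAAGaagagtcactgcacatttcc
The NRF-1 letters lie at bases 83 to 76 before the start in Ndufa6 and at bases 8 to 1 in Ndufa8, and the ETS letters at bases 27 to 21 in Ndufs3. A match is a description of letters only, and no binding was measured.

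The labelled cell type was checked against lists of marker genes. Of 19 MGC markers, 14 to 17 were on in the Rhod-ko cells at 8 weeks, 17 to 19 at 25 weeks, 17 to 18 in rd1 at 5 weeks and 14 to 19 in adult WT. In the 3 congenic FVB cells the MGC markers Aqp4, Slc1a3, Kcnj10, Car2, Car14, Apoe, Sox9, Spc25, Abca8a, Gpr37, Cp and Rdh10 were off. Sox9 was also off in all Rhod-ko cells at 8 weeks, Spc25 in all rd1 cells and Apoe in all rd1 cells at P13. At P13 the markers went against the label in 5 of 8 cells: rd1 cells A1 and B1 had 8 and 6 MGC markers and 10 and 8 of 10 vascular markers on, and the 3 congenic FVB cells had 7, 6 and 3 MGC markers and 10, 8 and 9 vascular markers on. Their summed vascular signal, in units of 1000, was 124.0 to 156.2, against 7.3 to 8.6 in the other rd1 cells at P13. Cells 7 and 8 of Rhod-ko at 8 weeks had 8 and 7 of 13 rod markers on (summed signal 270.8 and 196.7 in units of 1000), against 1 to 3 in the other cells of that group (6.5 to 77.3) and 0 to 2 in adult WT (2.0 to 56.5). At P13 all cells had rod markers on, 7 to 9 in rd1 (53.0 to 173.2) and 5 to 10 in congenic FVB (64.2 to 194.7). The rod markers Pde6b, Gngt1, Prph2, Pde6a and Rp1 were off in all 5 Rhod-ko cells of 8 weeks. Cell 7 also had 6 of 14 microglia and macrophage markers on. For the Gapdh control, the ratio of 3′ over 5′ probe set signal was 3.95 to 18.2 in Rhod-ko cells at 8 weeks, 1.17 to 2.05 at 25 weeks, 1.61 to 2.22 in rd1 at 5 weeks and 0.554 to 4.06 in adult WT. The 100 brightest genes took 25.8 to 35.1% of the signal in Rhod-ko cells at 8 weeks, against 15.5 to 21.5% in adult WT. The part of these features in the results was not tested.

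At the threshold of 2000, more complex I members were detected per cell in Rhod-ko than in adult WT. The number of members on was 24 to 27 per cell in Rhod-ko at 8 weeks (median 26), 23 to 28 at 25 weeks (median 24) and 18 to 26 in rd1 at 5 weeks (median 21.5), against 14 to 22 in adult WT (median 15). The Rhod-ko cells of either age thus lay above all adult WT cells, and rd1 cells overlapped with them. At a threshold of 10000 the order turned for 25 weeks, with medians of 15 at 8 weeks, 12 at 25 weeks and 14.5 in rd1 at 5 weeks, against 13 in adult WT. At 8 weeks this was not accompanied by more genes on in general, with 10.8 to 13.0% of all genes on at 8 weeks and 10.2 to 14.3% in adult WT, whereas at 25 weeks the share of all genes on was 14.7 to 17.2%. It was not particular to complex I. Of 48 genes of complexes II to IV and ATP synthase, 34 to 37 were on per cell at 8 weeks and 32 to 38 at 25 weeks. In rd1 at 5 weeks 30 to 38 of them were on, against 21 to 28 in adult WT. No cell of these diseased groups overlapped with adult WT in that number. The members' share of the summed signal was 1.54 to 2.8% at 8 weeks, 0.994 to 1.19% at 25 weeks and 1.16 to 1.41% in rd1 at 5 weeks, against 0.491 to 1.25% in adult WT. In the young FVB retinas 28 to 30 members were on in rd1 cells and 23 to 30 in congenic FVB cells (median 29 in either), with 15.6 to 16.9% and 16.1 to 16.5% of all genes on. In single cells, fewer transcripts of these genes and less RNA recovered from the cell cannot be told apart.

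**Figure D1:**
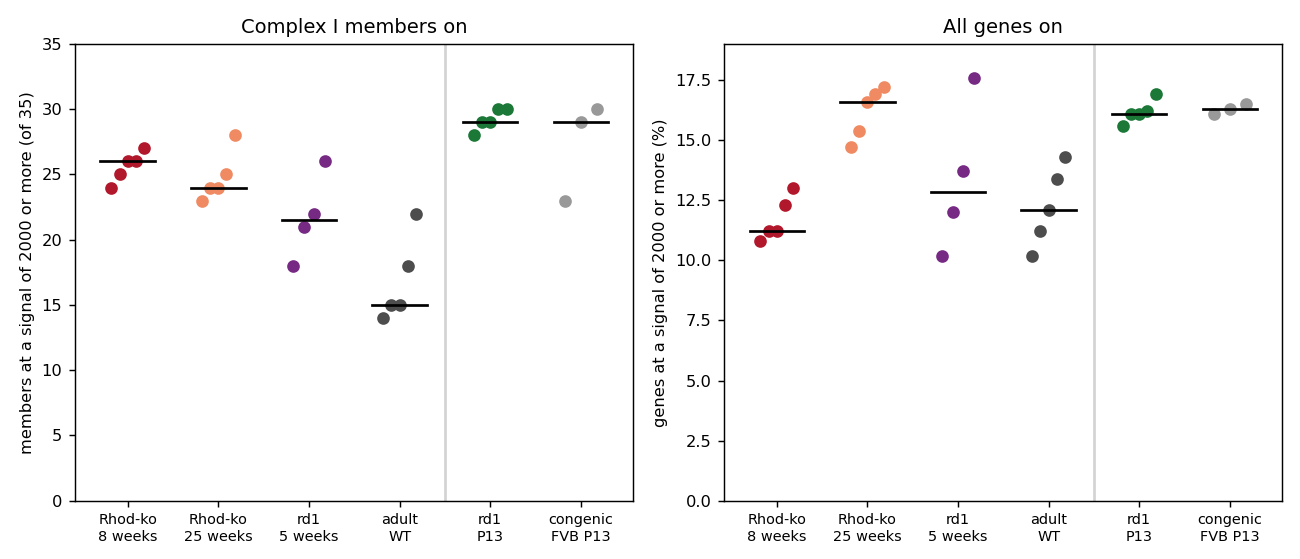
Number of the 35 members at a signal of 2000 or more (left) and percent of all 18194 genes at that signal (right) in each cell, by group, with points for cells and bars for group medians. Rhod-ko cells at 8 weeks (24 to 27 members) lie above all adult WT cells (14 to 22 members), while their percent of all genes on overlaps with adult WT. The order of Rhod-ko at 25 weeks (median 24) and adult WT (median 15) turned at a threshold of 10000 (medians 12 and 13).

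Most members were higher in Rhod-ko MGCs at 8 weeks than in adult WT MGCs. By the 2-fold rule 21 of 35 members (60.0%) were higher, against 28.6% of the expressed genes, and 2 members (5.71%) were lower, against 22.9%. The median difference of the members was 1.55 on the log2 scale, against 0 over the expressed genes, and the median shift of a cell was 0.37 to 1.71. A member whose control median lies at the floor cannot give a negative shift, so the sign of these medians is partly fixed. Members were higher in 7 of 13 cases in class a, 6 of 11 in class b, 1 of 2 in class c, 4 of 6 in class s and 3 of 3 in class v. In the matrix arm 10 of 14 members were higher and 0 lower (median difference 2.44), and in the membrane arm 11 of 19 were higher and 2 lower (median difference 1.21). Of 6 core subunits 5 were higher. The matrix arm had 11 to 12 of 14 members on per cell at 8 weeks, against 3 to 8 in adult WT. At 25 weeks it had 8 to 13 on, which meets the adult WT range. The membrane arm had 12 to 14 of 19 on at 8 weeks, against 7 to 12 in adult WT. Of the complex I subunits under the minimum signal, Ndufa1, Ndufb1 and Ndufb4 are in the membrane arm and Ndufs1 in the matrix arm.
With probe sets that carry no suffix tag (a tag marks probes that can match several transcripts), where a gene had one, 15 members were higher and the median difference was 0.38. Under that setting Ndufb2 and Ndufb8 were at 0, a value that arises where both medians lie at the floor. With group means in place of medians the median difference was 0.79, and without adult WT cell MG15 it was 0.91. Without cells 7 and 8, which had the most rod markers on, 19 members were higher and 2 lower, with a median difference of 1.21. Of the 23 calls, 10 held under all other settings tried and without each cell in turn: Ndufa2, Ndufa3, Ndufa5, Ndufa6, Ndufa13, Ndufc1, Ndufs3, Ndufs8 and Ndufv3 as higher, and Ndufc2 as lower.

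**Figure D2:**
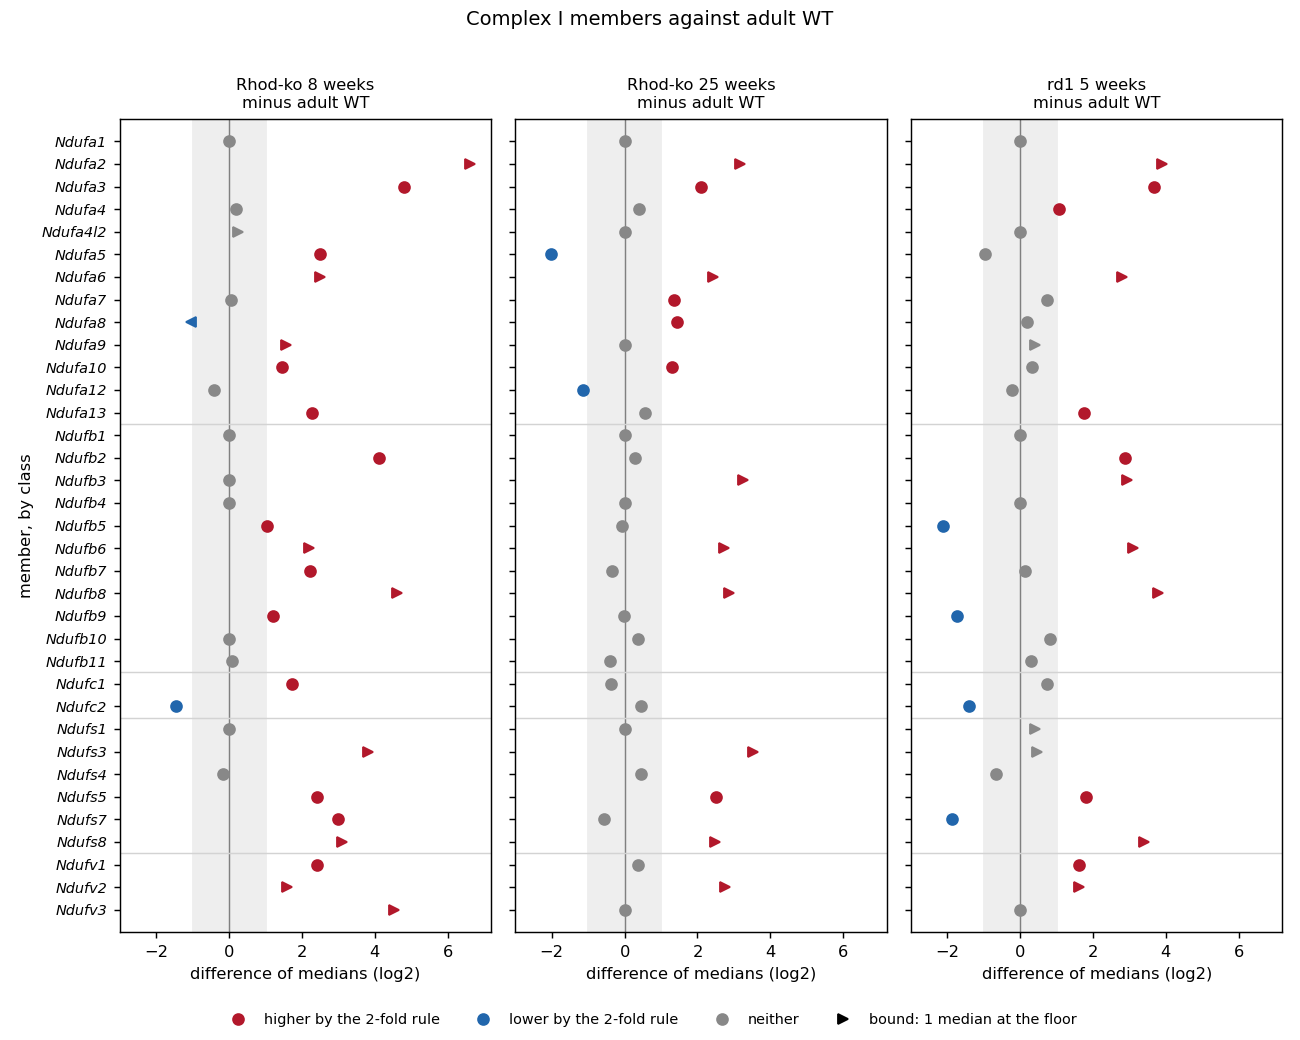
Difference of group medians of log2 signal (floored at 1000) for each member at 8 and 25 weeks in Rhod-ko and at 5 weeks in rd1, each against adult WT, by class from a to v, where triangles mark bounds and the grey band marks less than 2-fold. By the 2-fold rule 21 members are higher at 8 weeks, 13 at 25 weeks and 13 in rd1 at 5 weeks, with 2, 2 and 4 lower. The median over members at 25 weeks turned negative when arrays were scaled to the same 90th percentile.

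Among the accessory subunits of the NADH-oxidizing part of the matrix arm, Ndufa2, which has a thioredoxin-like fold, stood apart from adult WT in every diseased adult group. It had signals of 62880.0, 156065, 113384, 98079.6 and 33829.6 in Rhod-ko cells at 8 weeks, 6036, 9089, 10012, 8668 and 10281 at 25 weeks and 6331, 58301, 12920.3 and 17362 in rd1 at 5 weeks, against 53.1, 24.8, 14.3, 5166 and 101 in adult WT cells. Of 5 adult WT cells only MG15 had it on (exact 95% interval 0.505 to 71.6%, counting error only), while all 22 other cells did, the P13 cells of either strain included. No interval is given for those 22, which mix strains, genotypes and ages. No cell of a diseased adult group overlapped with adult WT, and the differences were at least 6.62 at 8 weeks, at least 3.18 at 25 weeks and at least 3.9 in rd1 at 5 weeks on the log2 scale. The rd1 cells of P13 did overlap, since B1 (2544.4) lay under MG15. Members without overlap were 3 (8.57%) at 8 weeks, Ndufa2, Ndufa13 and Ndufc1, against 2.87% of expressed genes, 1 (2.86%) at 25 weeks, against 1.27%, and 1 (2.86%) in rd1 at 5 weeks, against 1.13%. Ndufa2 was measured by 1 probe set. Between the ages of Rhod-ko it was lower at 25 weeks than at 8 weeks, with no overlap and a difference of -3.43. With congenic FVB at P13 in place of adult WT, where the control cells had most vascular markers on, the difference of rd1 at 5 weeks was 0.5.

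Ndufv3, a small subunit at the NADH site, had signals of 9857, 1611, 23111, 78706 and 75254 in Rhod-ko cells at 8 weeks, against 993, 7323, 9196, 286 and 448 in adult WT cells. The difference was at least 4.53, and cell 1 at 8 weeks overlapped with adult WT. At 25 weeks its signals were 130.5, 2288, 766, 919.7 and 799, with 1 of 5 cells on, against 4 of 5 at 8 weeks, a difference of -4.53 as a bound. Only 1 of 4 rd1 cells of 5 weeks was on, A1 (9911). In P13 retinas Ndufv3 was on in all rd1 cells (10436, 10546, 12941, 3414 and 13743), against 3809, 72.9 and 5744 in congenic FVB cells. This difference of 1.47 held without each cell in turn.

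Ndufv1, which binds NADH and the flavin, was 2.4 higher at 8 weeks, with 25024, 5856, 7914, 240.3 and 3659.6 in Rhod-ko cells and 1108, 129, 13637, 275 and 19721 in adult WT cells. The groups overlapped, and the call was lost without adult WT cell MG1, MG16 or MG15. At 25 weeks the signals were 1254, 1838, 11059, 230.3 and 1425, a difference of -2.04 from those at 8 weeks. In rd1 at P13 Ndufv1 had signals of 16272, 14010.3, 4931, 16128 and 1422, against 4510.4, 4851 and 6539 in congenic FVB cells, a difference of 1.53 that was lost without rd1 cell B4, A4 or B3. Its partner Ndufv2, which carries an iron-sulfur cluster, was 2676 to 3279 at 8 weeks, the narrowest range of the v class there, and 68.3 to 10192 at 25 weeks, against 391 to 11343 in adult WT. Its difference at 25 weeks was at least 2.75 and held under all settings tried, and that at 8 weeks, at least 1.6, was lost with 1 probe set per gene and with probe sets without a suffix tag.

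Ndufa12, which sits where the NADH part meets the ubiquinone part, was not higher in any group. It had signals of 14298, 14969.6, 15734, 25281 and 21208 at 8 weeks and 17977, 9448, 8269, 13916 and 4846 at 25 weeks in Rhod-ko cells, against 37006, 21732, 20853, 88.9 and 503 in adult WT cells. Adult WT cells MG15 and MG3 had little signal and the other 3 were brighter than all Rhod-ko cells of 25 weeks. Its call as lower at 25 weeks (-1.14) turned to 1.05 without adult WT cell MG1 or MG16, to 1.02 without MG22 and to 3.24 with 1 probe set per gene, and it was lost without cell A2, A3 or A5 of 25 weeks. Ndufs4, whose loss in mice is a model of Leigh syndrome, ranged over 287 to 6925 at 8 weeks, 5656 to 12186 at 25 weeks and 128 to 43301 in rd1 at 5 weeks, against 557 to 22933 in adult WT, and passed the rule in no comparison. Ndufs1, the largest core subunit, was on in 4 of 27 cells, with its highest signal in adult WT cell MG16 (8925), and passed in none either.

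Among the subunits at the ubiquinone site of the matrix arm, Ndufs3, Ndufs8 and Ndufa9 were each on in 1 of 5 adult WT cells, and Ndufs7 was on in 3 of 5. The core subunit Ndufs3 had signals of 17034, 18608, 14151, 7157 and 9004 in Rhod-ko cells at 8 weeks and 12728, 5928, 14022, 6374 and 11523 at 25 weeks, against 148, 174, 15, 1543 and 16887 in adult WT cells. Of the adult WT cells only MG3 was on, at a level within the range of the Rhod-ko cells, and all 10 Rhod-ko cells were on. The differences were at least 3.82 at 8 weeks and at least 3.53 at 25 weeks, and they held under all settings tried. Of the rd1 cells at 5 weeks 1 of 4 was on (1868, 524, 97.6 and 6126), and the rule was not passed.

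Ndufs8, which carries iron-sulfur clusters on the way to ubiquinone, had signals of 8491, 11699, 35458, 8036 and 6781 at 8 weeks and 76.9, 5558, 12346, 8042 and 4175 at 25 weeks in Rhod-ko cells and 4383, 240.4, 31601 and 25468 in rd1 at 5 weeks, against 1436, 17439.6, 343, 341 and 913 in adult WT cells. In adult WT it was on in MG16 only, and in the 3 diseased groups 12 of 14 cells were on. The differences were at least 3.09, at least 2.47 and at least 3.4. Ndufs7, which carries the last cluster before ubiquinone, had signals of 16551, 125116, 35418, 106049.9 and 152029 at 8 weeks, against 519, 118, 21873, 13345 and 31259 in adult WT cells. Its difference of 2.99 was lost with probe sets that carry no suffix tag. At 25 weeks the signals were 7351, 8690.1, 14917, 9033 and 13327, all under those at 8 weeks, a difference of -3.55. In rd1 at 5 weeks they were 13508, 165, 17868 and 802, a difference of -1.86 from adult WT. This call turned to 0.01 without adult WT cell MG22 or MG3 and to 0.02 without rd1 cell B1 or the A5 and A6 mean, and was lost without MG15.

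Of the accessory subunits at the ubiquinone site, Ndufa5 had signals of 38592, 117632, 3454, 96034 and 184955 in Rhod-ko cells at 8 weeks and 1642, 14819.9, 6428, 4195 and 3936 at 25 weeks, against 20685, 17125, 2318, 1169 and 17181 in adult WT cells. Its difference was 2.49 at 8 weeks, and 5.27 with probe sets without a suffix tag. It was -2.03 at 25 weeks, where the call turned to 1.98 with probe sets without a suffix tag and was lost without adult WT cell MG1, MG16 or MG3. Between the ages the difference was -4.52, with cell 3 at 8 weeks within the range of the older cells. Ndufa6, which binds the mitochondrial acyl carrier protein, was on in all Rhod-ko cells (4388 to 9185 at 8 weeks, 2159.9 to 6699 at 25 weeks), in 3 of 4 rd1 cells at 5 weeks (1930.1 to 16037), and in adult WT cells MG15 and MG3 only (2.3 to 19094). Its differences were at least 2.5, at least 2.43 and at least 2.79, and at P13 it was on in all 8 cells. Ndufa7 had signals of 5678, 9839, 8381, 10384 and 4878 at 25 weeks, against 3441, 768, 8339.9, 1510.2 and 5209 at 8 weeks, which was 1.28 higher at 25 weeks, a call lost without cell 1 or 7 of 8 weeks. Against adult WT (566, 3294, 7758, 8176 and 2767) it was 1.35 higher at 25 weeks, and 3.07 with 1 probe set per gene, a call lost without MG1, MG16 or MG3 and with scaling to the same 90th percentile.

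Ndufa9, which lies beside the ubiquinone site and binds a nucleotide, was on in 11 of 27 cells, 3 of them the congenic FVB cells. It had signals of 73.1, 6451, 4164, 796 and 56.3 in rd1 cells at P13, against 2960.0, 4274 and 4779 in congenic FVB cells, and was the only member lower in that comparison (-2.1 as a bound at the floor). The call held without each cell in turn, but rd1 cell A1 lay within the congenic range and A4 above it. In Rhod-ko cells at 8 weeks the signals were 171, 12054, 637, 3672 and 2937, against 174, 42.6, 7, 33.9 and 17109 in adult WT cells, a difference of at least 1.55 that was lost without cell 1, 7 or 8 of 8 weeks.

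**Figure D3:**
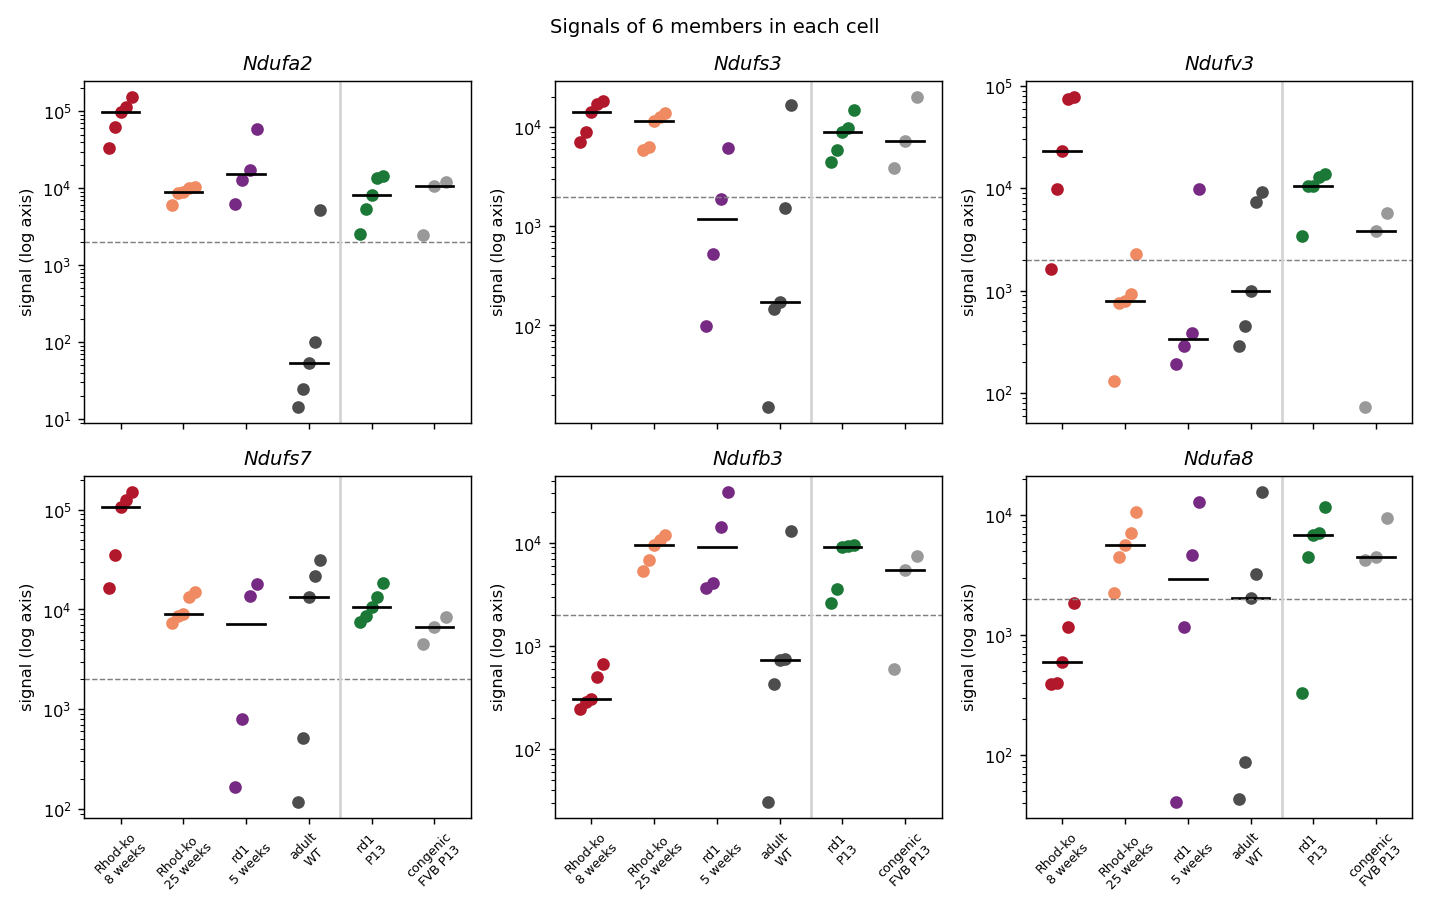
Signal of Ndufa2, Ndufs3, Ndufv3, Ndufs7, Ndufb3 and Ndufa8 in each cell by group on a log axis, with points for cells, bars for medians and a dashed line at 2000. Ndufa2 is on in 1 of 5 adult WT cells and in all 22 other cells, and Ndufb3 and Ndufa8 are under 2000 in all 5 Rhod-ko cells at 8 weeks and over it in all 5 at 25 weeks.

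Ndufa13 and Ndufc1, of the membrane arm, had no overlap at 8 weeks. Ndufa13, also known as a cell death regulator, had signals of 38741, 44812, 41199, 19574 and 17439.7 in Rhod-ko cells at 8 weeks and 11730.3, 10270.5, 9632, 16961 and 13914 at 25 weeks, against 15808, 7977, 130.5, 5367 and 15168 in adult WT cells. It was 2.28 higher at 8 weeks than in adult WT, and its difference at 25 weeks from 8 weeks was -1.72. Neither pair of groups overlapped, and the difference between the ages was -0.84 with quantile normalization. In rd1 at 5 weeks Ndufa13 had 11533, 21532, 45208 and 33172, a difference of 1.74 from adult WT that held under all settings tried. These included congenic FVB as the control, whose cells had most vascular markers on. Ndufc1 had signals of 48272, 78914, 46153, 93116 and 36629 at 8 weeks and 18507, 5885, 26415, 4196 and 11259 at 25 weeks, against 15711, 14599, 4576, 1869 and 22090.4 in adult WT cells. It was 1.73 higher at 8 weeks, and 4.69 with 1 probe set per gene, and its difference at 25 weeks from 8 weeks was -2.1, again without overlap. In rd1 cells at P13 Ndufc1 was 19384, 36007, 16996, 22201 and 14081, against 6942, 25232 and 542 in congenic FVB cells, and its difference of 1.48 was lost without congenic cell A5.

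The other class c subunit, Ndufc2, went the other way. It had signals of 10443, 907, 3460.0, 4377 and 4413 in Rhod-ko cells at 8 weeks, against 44162, 5692, 31505, 10685 and 12130.1 in adult WT cells, a difference of -1.47, with overlap. At 25 weeks it had 16587, 6878, 14873, 16880.3 and 29643, 1.92 above the level at 8 weeks. In rd1 at 5 weeks it had 9949, 2136, 1834 and 12413, a difference of -1.4 from adult WT that was -0.29 without rd1 cell B1 or A8 or with arrays A5 and A6 apart.

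Ndufa3, a small membrane subunit, had signals of 34285, 92759, 33686, 32676 and 988 in Rhod-ko cells at 8 weeks and 9805, 23826, 23.8 and 30201 in rd1 at 5 weeks, against 27078, 106, 1199.8, 35.7 and 26209.7 in adult WT cells. Adult WT cells MG1 and MG3 had it on, and 1 cell of either diseased group (8 and A8) was off. The differences of 4.81 and 3.67 held under all settings tried. At 25 weeks the signals of 5097, 3909.6, 5429, 5122 and 6062 were 2.09 above adult WT, but the value turned to -0.13 without adult WT cell MG16 or MG15, to 0 without MG22 and to -0.12 with scaling to the same 90th percentile. Ndufa10, of the nucleoside kinase family, was 1519.9 to 8436 at 8 weeks and 14.6 to 12362 at 25 weeks, against 100.5 to 14394 in adult WT, and its calls at these ages (1.44 and 1.29) were lost without MG1 or MG22, and that at 25 weeks also without MG3. Ndufa1, whose gene is on the X chromosome, was on in 8 of 27 cells, 6 of them among the 8 cells of P13.

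Ndufa8 and Ndufb3 were off in all Rhod-ko cells at 8 weeks and on in all at 25 weeks. Ndufa8, a small cysteine-rich protein on the intermembrane side, had signals of 5583, 7063, 2227, 4508 and 10598 in Rhod-ko cells at 25 weeks, against 1158, 399.7, 595, 1859 and 393 at 8 weeks. All 5 cells at 25 weeks were on and all 5 at 8 weeks were off, a difference of at least 2.48. In adult WT cells the signals were 15702, 2049, 43.4, 3208 and 87.1, so that the call as lower at 8 weeks was small (-1.04 as a bound) and was lost without any of 3 adult WT cells, MG1, MG16 and MG15, or of 3 cells of 8 weeks, 1, 3 and 8. At 25 weeks Ndufa8 was 1.45 above adult WT, and 0.45 with scaling to the same 90th percentile. Ndufb3, an accessory subunit far out on the membrane arm, had signals of 9470.2, 5296, 10668, 6727 and 11798 in Rhod-ko at 25 weeks, against 494, 282, 659.7, 242 and 304 at 8 weeks. For rd1 at 5 weeks they were 3664, 31335, 14101 and 4059, against 429, 12879.9, 30.6, 736 and 748 in adult WT cells. All 9 cells of the 25-week Rhod-ko and 5-week rd1 groups had it on, and of adult WT only MG16. At 25 weeks it was at least 3.24 above both 8 weeks and adult WT. Members without overlap between the ages were 2 higher at 25 weeks (5.71%), Ndufa8 and Ndufb3, against 4.32% of expressed genes, and 4 lower (11.4%), Ndufa2, Ndufa13, Ndufc1 and Ndufs7, against 3.17%.

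Among the class b subunits of the membrane arm, Ndufb2 had signals of 24012, 44055, 46725, 96411 and 6319 in Rhod-ko cells at 8 weeks and 7264, 1591, 1246, 8132 and 3097 at 25 weeks, against 8574, 72, 2546, 8240.1 and 482 in adult WT cells. It was 4.11 higher at 8 weeks, and its difference at 25 weeks from 8 weeks was -3.83. Both were 0 with probe sets that carry no suffix tag, a value that arises where both medians lie at the floor. In neither case did the call hold there. In rd1 cells at P13 it was 11744, 8922, 8173, 22955 and 15721, against 3325, 16254 and 1500.5 in congenic FVB cells, 1.82 higher, and the call was lost without congenic cell A5. Ndufb8 had signals of 154, 58032, 8500.2, 24654 and 50593 at 8 weeks, 15545, 7308, 1509, 15851 and 6894 at 25 weeks and 17332, 11012, 3359.5 and 29982 in rd1 at 5 weeks, against 398, 5324, 216, 22.8 and 5992 in adult WT cells. The differences were at least 4.62, at least 2.87 and at least 3.79, and adult WT cells MG16 and MG3 lay within the range of each diseased group. With probe sets without a suffix tag each of these differences was 0, a value that arises where both medians lie at the floor.

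Ndufb5 and Ndufb9 were higher at 8 weeks and lower in rd1 at 5 weeks. Ndufb5 had signals of 12648, 37171, 2528, 58366 and 34897 in Rhod-ko cells at 8 weeks and 4626, 32258, 3196 and 451 in rd1 at 5 weeks, against 1998, 24872, 3057, 19482 and 16819 in adult WT cells. Its difference of 1.05 at 8 weeks turned to -0.41 without cells 7 and 8 and to -0.63 with probe sets without a suffix tag, and it was lost without adult WT cell MG1 or MG22, without cell 1, 7 or 8 of 8 weeks and under both scalings. For rd1 the difference was -2.13, a call lost without MG16 or MG15. Ndufb9, which like Ndufa6 belongs to the LYR family of mitochondrial proteins, had 19914, 48022, 33942, 75267 and 24703 at 8 weeks and 11225, 292, 16682 and 1785 in rd1 at 5 weeks, against 14705, 739, 22069, 608 and 50965 in adult WT cells. The difference of 1.21 at 8 weeks was lost without adult WT cell MG16 or MG15 or cell 1 or 7 of 8 weeks, and it was 0.03 with scaling to the same 90th percentile. That of -1.72 in rd1 turned to 0.22 without MG22 or MG3, and was -0.07 without MG1 and -0.39 without rd1 cell B1 or the A5 and A6 mean. At P13 Ndufb9 had 11580.3, 22691, 9099, 19367 and 19977 in rd1 cells, against 4572, 19053 and 5379.5 in congenic FVB cells, the largest positive difference of that comparison (1.85), lost without congenic cell A3.

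Of the other class b members, Ndufb6 ranged over 610.3 to 8062 at 8 weeks, 550.5 to 10956 at 25 weeks and 7.5 to 35364 in rd1 at 5 weeks, against 82.4 to 19251 in adult WT, with differences of at least 2.2, at least 2.73 and at least 3.09. Ndufb7, another cysteine-rich protein of the intermembrane side, ranged over 8066 to 49317 at 8 weeks, against 93.6 to 20863 in adult WT (2.23 higher, 5.12 with 1 probe set per gene and 0.64 with scaling to the same 90th percentile), and its difference at 25 weeks from 8 weeks was -2.57. Ndufs5, of the same kind, was higher by 2.4 at 8 weeks, 2.52 at 25 weeks and 1.82 in rd1 at 5 weeks, with 669.6 to 15145 in adult WT. Against adult WT the calls of Ndufb6 in Rhod-ko were lost without MG22, MG15 or MG3, and those of Ndufs5 in all 3 diseased groups without MG22 or MG15, and at 8 weeks and in rd1 also without MG16. Ndufb10 passed the rule in no comparison. Ndufb11, whose gene is on the X chromosome, was the only member on in all 27 cells. It had signals of 27002, 22089, 39696, 16844 and 8868 at 8 weeks, 10158, 20937, 21829.8, 15950.1 and 12523 at 25 weeks and 12472, 19179, 33848 and 41006 in rd1 at 5 weeks, against 5047, 28149, 18152, 20862 and 32082 in adult WT cells, and passed in no comparison. Ndufb1 and Ndufb4 were on in none of 27 cells, with highest signals of 437 and 882, both in adult WT.

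The members that are not complex I subunits did not share the pattern of 8 weeks. Ndufa4 had signals of 7272, 882, 11374, 12067 and 8684 at 8 weeks, 15747, 11021, 7801, 1953 and 9867 at 25 weeks and 13709, 32324, 3178 and 18433 in rd1 at 5 weeks, against 240.3, 18925, 7555, 2202 and 11964 in adult WT cells. It passed the rule only in rd1 (1.07), and there the value turned to -0.15 with scaling to the same 90th percentile and was under 1 without adult WT cell MG1 or MG15 or without rd1 cell B1 or the A5 and A6 mean. Ndufa4l2, known as a target of the hypoxia-inducible factor, was on in cell 7 of 8 weeks (3505) and in adult WT cell MG16 (8347), and under 2000 in the 25 other cells.

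**Figure D4:**
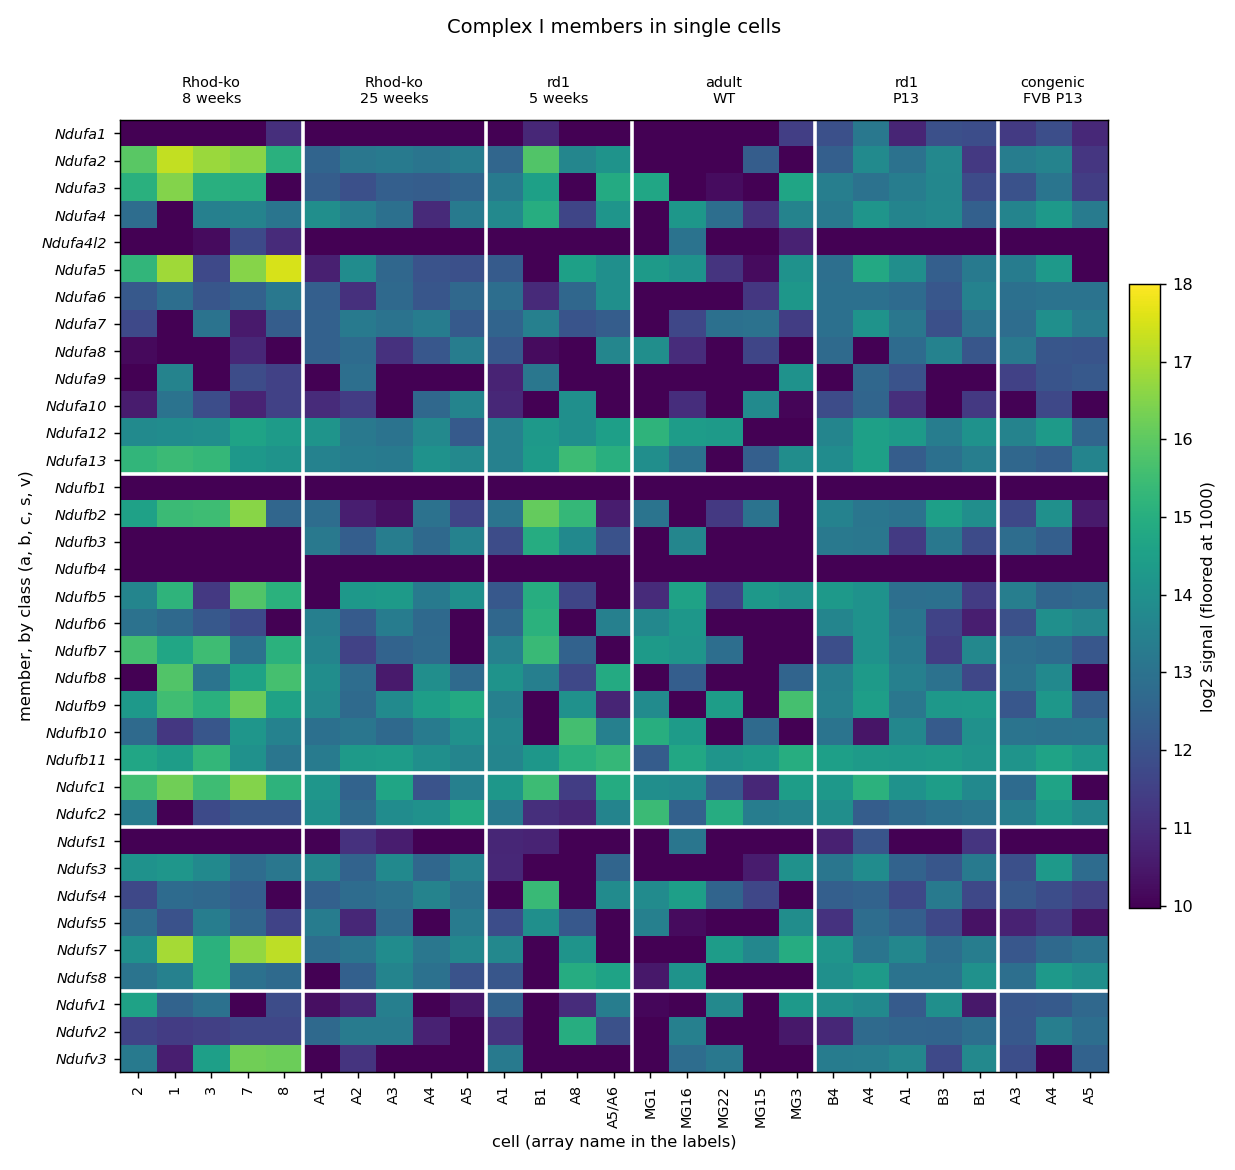
Log2 signal (floored at 1000) of all 35 members, in rows by class from a to v, in the 27 cells, in columns by group. Ndufa2 and Ndufs3 are dark in most adult WT cells, Ndufb3 and Ndufa8 in the Rhod-ko cells of 8 weeks, and Ndufb1 and Ndufb4 in all cells. Rows come from different probe sets and are not compared with each other.

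At 25 weeks complex I members in Rhod-ko cells stood closer to adult WT. By the 2-fold rule 13 of 35 (37.1%) were higher, against 33.1% of expressed genes, and 2 (5.71%) were lower, against 15.5%. The share of higher members was thus near the background over all 35, and was 43.3% among the 30 members over the minimum signal. The median shift of a cell was 0.27 to 0.54, where members at the floor in adult WT again cannot give a negative shift. The median difference of all members was 0.36. It turned to -0.12, with 9 members higher and 12 lower, when the arrays were scaled to the same 90th percentile, where 17.6% of expressed genes were higher and 28.2% lower. Without adult WT cell MG15 the median difference was 0.05 and 4 members were lower, and without MG1, MG16 or MG3 it was 0.84, 0.86 or 0.73. The 13 higher members were Ndufa2, Ndufa3, Ndufa6, Ndufa7, Ndufa8, Ndufa10, Ndufb3, Ndufb6, Ndufb8, Ndufs3, Ndufs5, Ndufs8 and Ndufv2. Of the 15 calls, 6 held under all settings tried and without each cell, those of Ndufa2, Ndufa6, Ndufb3, Ndufs3, Ndufs8 and Ndufv2. The comparisons at 8 and 25 weeks share the adult WT cells.

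Set against 8 weeks directly, 14 members (40.0%) were lower at 25 weeks, against 18.4% of expressed genes, and 5 (14.3%) were higher, against 30.1%. Among the 30 members over the minimum signal 46.7% were lower and 16.7% higher. Similar shares were lower among the genes of complexes II to IV and ATP synthase (39.6%) and of cytosolic ribosomal proteins (42.9%). The median difference of all members was -0.3, and the median shift of a cell was -0.82 to -0.02. The higher members were Ndufa7, Ndufa8, Ndufb3, Ndufc2 and Ndufv2. This comparison and that of 8 weeks with adult WT share the cells of 8 weeks. By arm 6 of 14 matrix arm members and 8 of 19 membrane arm members were lower. Of the 19 calls, 11 held under all settings tried and without each cell, among them the 6 members without overlap except Ndufa13. With probe sets without a suffix tag 11 were lower and 6 higher, and the median difference was 0. Without cells 7 and 8 of 8 weeks 12 were lower and 6 higher.

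In rd1 at 5 weeks 13 members (37.1%) were higher than in adult WT, against 28.3% of expressed genes, and 4 (11.4%) were lower, against 18.5%. Among the 30 members over the minimum signal 43.3% were higher and 13.3% lower. The median difference of all members was 0.4, against 0.04 over the expressed genes. The median shift of a cell was 0 to 0.86, with the same limit. The largest differences were those of Ndufa2, Ndufb8, Ndufa3 and Ndufs8. Congenic FVB at P13, taken as another control, was of the same strain but younger, and its cells had 8 to 10 of 10 vascular markers on. With this control 5 members were higher and 6 lower and the median difference was 0. The differences of Ndufa6, Ndufb6, Ndufs8, Ndufv1 and Ndufv2 turned to -0.27, -0.58, -0.59, -0.52 and -1.28. Without rd1 cell A8 the median difference from adult WT was 0.87.

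In rd1 at P13, when rods are being lost, 7 members (20.0%) were higher than in congenic FVB cells, against 20.0% of expressed genes, and 1 (2.86%) was lower, against 16.3%. Over all 35 members the share higher was that of the background, and among the 30 members over the minimum signal it was 23.3%. The higher members were Ndufa3, Ndufa10, Ndufb2, Ndufb9, Ndufc1, Ndufv1 and Ndufv3, and of the 8 calls only those of Ndufv3 and Ndufa9 held under all settings tried and without each cell. The median difference was 0.43, and the median shift of a cell was 0 to 0.77. All 3 congenic cells had most vascular markers on, as given above. Without rd1 cells A1 and B1, which had them on too, 9 members were higher and 1 lower. Leaving out 1 congenic cell gave 3 (without A5) to 11 (without A4) higher members.

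**Figure D5:**
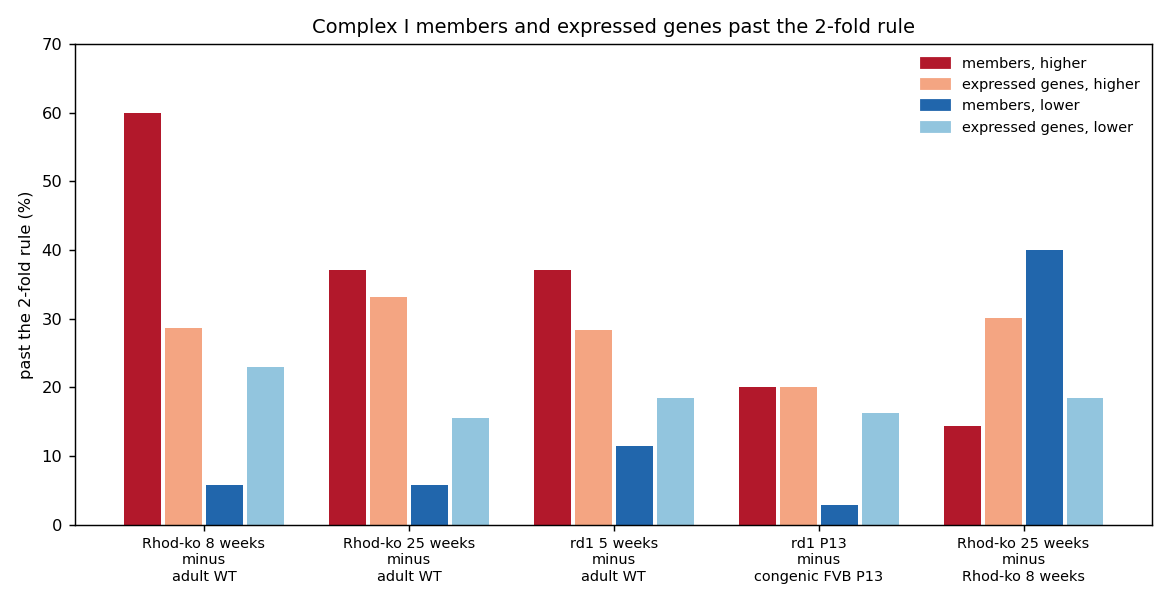
Percent of the 35 members (dark bars) and of the 3377 expressed genes (light bars) higher (red) or lower (blue) by the 2-fold rule in the 5 comparisons. The largest gap is that of Rhod-ko at 8 weeks against adult WT, where 60.0% of members and 28.6% of expressed genes are higher. At 25 weeks against adult WT the split of members turned to 9 higher and 12 lower with scaling to the same 90th percentile.

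Probe sets that name more than 1 gene were kept out of the members, since their signal cannot be assigned. Some carry complex I names and are given here as values. A probe set of Ndufs6 and Ndufs6b, on the NADH-oxidizing part of the matrix arm, ranged over 541 to 60173 in Rhod-ko cells at 8 weeks and 283 to 4893 at 25 weeks, against 217 to 11678 in adult WT. A probe set of Ndufa11 and Ndufa11b ranged over 8673 to 73038 at 8 weeks, on in 5 of 5 cells, and 119 to 5557 at 25 weeks, against 115 to 10661 in adult WT, on in 1 of 5. A probe set of Ndufb4, Ndufb4b and Ndufb4c was on in 3 of 5 cells at 8 weeks and 2 of 5 in adult WT, while the probe set of Ndufb4 alone was off in all. ND5, a proton-pumping subunit encoded by mitochondrial DNA, had signals of 24535, 9684, 32307, 84301 and 67408 in Rhod-ko cells at 8 weeks and 22163, 25502, 18364, 25981 and 20333 at 25 weeks and 15513, 29329, 31033 and 20098 in rd1 at 5 weeks, against 151859, 6010.3, 63186, 47840.3 and 171683 in adult WT cells. Its difference of -0.97 at 8 weeks did not pass the rule, while those of -1.51 at 25 weeks and -1.38 in rd1 made it lower, with overlap in each comparison.

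Genes around complex I were taken from lists. Of 20 assembly factors measured, 3 had a mean signal of at least 2000. None passed the rule in Rhod-ko cells at 8 or 25 weeks against adult WT. Of all genes measured, 6.17% were higher and 5.12% lower at 8 weeks, and 7.9% and 3.7% at 25 weeks. In rd1 at 5 weeks 1 of the 20 (5.0%), Ndufaf3, was higher (at least 1.31), near the 6.35% of all genes. In rd1 at P13 Dmac1, needed for the distal membrane arm, was higher (2.55 as a bound) and Ndufab1, the acyl carrier protein of the complex, was lower (-1.39 as a bound). Each was 1 of the 20 (5.0%), near the 4.79% of all genes higher and 6.41% lower. Of 12 regulators of mitochondrial biogenesis, 1 had a mean signal of at least 2000. At 8 weeks 1 of the 12 (8.33%) was higher, against 6.17% of all genes measured. This was Nrf1, the gene of the factor NRF-1 (at least 1.78), with 579.7 to 16092 in Rhod-ko cells, 3 of 5 on, against 219 to 4106 in adult WT, 1 of 5 on. At 25 weeks Nrf1 was lower than at 8 weeks (-1.64), as 1 of the 12 (8.33%), against 4.16% of all genes. Yy1, the gene of the factor YY1, was higher in rd1 at 5 weeks than in adult WT (at least 1.78) and lower in rd1 at P13 than in congenic FVB (-1.17). In either case it was 1 of the 12 (8.33%), near the 6.35% and 6.41% of all genes. The genes of complexes II to IV and ATP synthase were higher in 25 of 48 cases (52.1%) and lower in 3 at 8 weeks (median difference 1.07), against 28.6% and 22.9% of expressed genes. At 25 weeks 18 (37.5%) were higher, near the 33.1% of expressed genes, and 6 lower (median difference 0.24). For rd1 at 5 weeks 19 (39.6%) were higher, against 28.3% of expressed genes, and 6 lower (median difference 0.49). Among 49 genes of cytosolic ribosomal proteins, 20 (40.8%) were higher at 8 weeks, against 28.6% of expressed genes, and 7 lower (median difference 0.43). From 8 to 25 weeks, 19 of the 48 genes (39.6%) were lower and 7 (14.6%) higher (median difference -0.56). Of the 49 ribosomal genes, 21 (42.9%) were lower and 5 (10.2%) higher (median difference -0.33). Among expressed genes 18.4% were lower and 30.1% higher between these ages. A mean signal of at least 2000, which all expressed genes of the background have, was reached by 42 of these 48 and 39 of these 49 genes. No list was tested against the members.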

How the data were processed

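Single cells were papain-dissociated from retinas, picked by shape, reverse transcribed and amplified by 35 cycles of PCR, and each cell's cDNA was hybridized to an Affymetrix Mouse 430 2.0 array. The deposited values are signal intensities on a linear scale, which the authors computed with MAS 5.0 and scaled to a common trimmed mean per array. A MAS signal has no count behind it, and long amplification can lose rare transcripts and favour the 3′ end, so the number of cells limits the precision.

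Of 45101 probe sets, 34958 carried 1 gene symbol in the array annotation and were used, 932 carried several and 9211 none. The 35 members had 73 probe sets, 1 to 6 each. The highest per cell was taken. For 35 of 35 members a RefSeq entry (GRCm38.p6) was matched by Entrez number. Each condition was 1 sample of several cells, since no animal is named, so no test was run. Group medians of log2 signal, floored at 1000, were subtracted, with a rule of size of 1, and the direction is the first-named group minus the second. The background is all genes with a mean signal of at least 2000 over the cells. Exact 95% (Clopper-Pearson) intervals of cell counts cover counting error only. Members and lists were chosen with earlier results of these data known. By the rule for values in every cell, these are given for up to 4 higher and 4 lower members with the largest differences per comparison, members without overlap of cells, members on in all or no cells, and Ndufa4 and Ndufa4l2. Others are given by ranges and counts, and any of them singled out was chosen after its values were seen.

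Alternatives concerned the probe sets (1 per gene, or those without a suffix tag), the scaling (quantile, or an equal 90th percentile on all arrays), the floor (500 or 2000), means in place of medians, other thresholds for on, A5 and A6 as separate cells, the younger congenic FVB cells as the control for 5-week rd1 cells, and leaving out each cell. Leaving out cells 7 and 8 of Rhod-ko at 8 weeks was added after seeing the data. The calling step was tested on simulated data with known differences. Scripts ran in Python 3.11.15 with SciPy 1.17.1, NumPy 2.4.6 and pandas 2.3.3, and figures in matplotlib 3.10.9. Detection calls were not used here, and Ndufs6 and Ndufa11 were not analysed here as members.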

Additional observations from a re-analysis of the deposited data

Results flagged for a closer look

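The floored log2 signals of each member in each group of 4 or 5 cells, with the number of members on, their share of the signal and their median, made 174 sets of values with any spread. In 22 of them, all of single members, 1 cell lay far from the rest by Dixon's criterion, which chance gives in about 1 of 20 sets of untied values. Where all cells but 1 lay at the floor, their values are tied and that rate does not hold. The signals of these cells follow. Among Rhod-ko cells at 8 weeks, cell 8 was high for Ndufa1 (2121.3) and low for Ndufa3 (987.6), cell 1 was low for Ndufa4 (881.5), and cell 7 was high for Ndufa8 (1858.9), which is still under 2000. Among those at 25 weeks, A2 was high for Ndufa9 (7591.3) and Ndufv3 (2287.5), A3 was high for Ndufv1 (11058.9) and A1 was low for Ndufb5 (857.0). Among rd1 cells at 5 weeks, B1 was high for Ndufa1 (1858.8) and A1 for Ndufv3 (9911.4). At P13, rd1 cell B4 was low for Ndufv2 (1875.9) and B3 for Ndufv3 (3413.9).

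In adult WT 10 members had a single bright cell. MG16 was that cell for Ndufa4l2 (8347.0), Ndufb3 (12879.9), Ndufs1 (8924.9), Ndufs8 (17439.6) and Ndufv2 (11342.9). MG3 was that cell for Ndufa1 (2815.1), Ndufa9 (17109.4) and Ndufs3 (16886.9), and MG15 for Ndufa2 (5166.0) and Ndufa10 (14394.4). The adult WT median of each of these members except Ndufa10 lies under the floor of 1000, so that a difference from it is a bound, or 0 where the other median lies at the floor too.

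Ndufa8 differed in direction between the ages of Rhod-ko. All 5 cells at 8 weeks lay below and all 5 at 25 weeks above the adult WT median, and the log2 median at 8 weeks minus that at 25 weeks was -2.48. The difference was not tested.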

How the results depend on the processing

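No paired analysis was possible because no test was run and cell names only name cells. For Rhod-ko at 8 weeks against adult WT, 1 member was lower with a floor of 2000, and the median difference of members was 0.79 with group means and 0.38 with probe sets without a suffix tag, where Ndufb5 turned to -0.63, as it did without cells 7 and 8 (-0.41). For 25 weeks against adult WT, 1 probe set per gene gave 1 lower, a median of 1.11 and 3.24 for Ndufa12. Probe sets without a suffix tag gave 1 lower and 1.98 for Ndufa5, quantile normalization a median of 0.58, and group means 0 lower, a median of 0.5 and 0.5 for Ndufa12. Scaling to the same 90th percentile gave 12 lower, a median of -0.12 and -0.12 for Ndufa3. For rd1 at 5 weeks the median was 0.82 with 1 probe set per gene. There 8 members were lower with the same 90th percentile, where Ndufa4 was -0.15, and 1 with group means. With congenic FVB as the control, whose cells had most vascular markers on, 5 were higher and 6 lower with a median of 0. There Ndufa6 (-0.27), Ndufb6 (-0.58), Ndufs8 (-0.59), Ndufv1 (-0.52) and Ndufv2 (-1.28) turned negative. For rd1 at P13, 4 were higher with group means. Between the ages of Rhod-ko the same 90th percentile gave 3 higher and a median of -0.98, and Ndufb5 turned to 1.32 without suffix tags and to 0.34 without cells 7 and 8.

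Members on per cell had medians of 15 at 8 weeks, 12 at 25 weeks, 14.5 in rd1 at 5 weeks, 13 in adult WT, 12 in rd1 at P13 and 7 in congenic FVB at a threshold of 10000, of 26 at 25 weeks and 31 in rd1 at P13 at 1000, of 19 in adult WT under quantile normalization and under the same 90th percentile, and of 28 in rd1 at P13 under the latter scaling.

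Without 1 cell each, higher and lower members and their median ranged over 17 to 21, 1 to 2 and 0.91 to 1.65 (8 weeks against adult WT), 11 to 16, 1 to 4 and 0.05 to 0.86 (25 weeks), 11 to 16, 2 to 4 and 0.4 to 0.87 (rd1 at 5 weeks), 3 to 11, 1 to 2 and 0.09 to 0.67 (rd1 at P13), and 4 to 5, 11 to 14 and -0.52 to -0.24 (25 against 8 weeks). Members whose sign turned without 1 cell ranged over -1.24 to 1.05 (Ndufa12 at 25 weeks), -0.13 to 2.23 (Ndufa3 at 25 weeks), -3.04 to 0.22 (Ndufb9), -3.74 to 0.02 (Ndufs7) and -0.2 to 2.37 (Ndufv1), the last 3 in rd1 at 5 weeks, each against adult WT. The cause was not tested.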
